A study of Mus musculus with 2 samples.

Results

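A set of 9 transcripts used as marks of myeloid identity were followed in mouse osteoclast precursors, to set those that were kept against those that were low after RANKL was added. They were chosen by name from the annotated table of normalized values, as the array genes CD68, LYZ (now Lyz1), LYZS (Lyz2), MPEG1, EMR1 (Adgre1), EMR4 (Adgre4), F13A1, LY86 and CD180, and all 9 names were found, each once, among 31492 array genes. The choice was made from the values of the contrast described here, so the members' own values are given as a description with no test. Bone marrow cells of C57BL/6 mice aged 8 weeks had been sorted as CD3-, CD45R-, CD11b lo/- and CD115+ and then cultured for 3 days. The tested cultures received M-CSF and RANKL, each at 30 ng/ml, and the controls M-CSF alone at 30 ng/ml. M-CSF, the cytokine that keeps monocytes and macrophages alive, was thus present in both groups, and what set them apart was RANKL, the cytokine that starts osteoclast formation. RNA came from the adherent cells only, and what else adhered besides precursors and their progeny the sources used here do not give. Each group is deposited as the mean and SD of 3 biological replicates on separate Illumina bead arrays, with no value for a single array. The sources used here do not say whether replicates were separate animals or separate cultures, so p-values measure only the spread between them.

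Monocytes, macrophages and osteoclasts descend from a shared myeloid precursor, and a set of transcripts is commonly used to recognise that lineage. Some encode the machinery of lysosomes and of microbe killing (Cd68, the lysozymes, Mpeg1), others surface receptors by which macrophages are counted in tissue (Adgre1) or by which bacterial products are sensed (Cd180 with Ly86). An osteoclast is itself a myeloid cell rich in lysosomal machinery, so a marker of the lineage need not be a marker of the macrophage state. In these bulk RNA samples fewer cells of a type and less RNA per cell cannot be told apart.

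The labels were checked against marker lists. All 12 tested genes of a list of 15 osteoclast markers were higher with RANKL at an adjusted p under 0.05 in limma, among them cathepsin K (Ctsk), at 67578 with RANKL and 302 with M-CSF. Of 14 tested monocyte and macrophage markers, 13 were lower with RANKL and 1, Spi1, was higher. Across all 11012 tested array genes, meaning those whose detection p fell below 0.01 in either or both groups, 57.8% passed in either direction, 29.0% lower and 28.9% higher, and the median log2 ratio was -0.00. Of the tested osteoclast markers 12 were detected with RANKL and 8 with M-CSF. Of the tested monocyte and macrophage markers 11 were detected with RANKL and 14 with M-CSF. Markers detected in a single group entered the test through the group where they were high, so their direction is no check. None of 9 stromal markers was detected in either group, and 1 of 6 endothelial markers was (Pecam1, in M-CSF + RANKL cultures). Signals are linear intensities over a background of about 144, which was not subtracted, and its subtraction made the log2 ratio of Ly86, the detected member it touched most, -2.93 in place of -2.82.

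Of the 8 members that were detected, 4 had means at least 2-fold lower in M-CSF + RANKL cultures (Mpeg1, F13a1, Adgre1 and Ly86, between 4.94-fold and 7.05-fold), and 7.01% of all tested array genes were that far lower. The other 4 (Cd68, Lyz1, Lyz2 and Cd180) lay within 2-fold of the M-CSF level, as did 86.1% of tested array genes. Since the members were picked to show both behaviours, nothing is read from these counts. A set of 3 arrays with a given mean and SD cannot lie further than 1.41 SD from that mean, whichever divisor was used for the SD. By that limit the single arrays of the groups could not have overlapped for 7 of the 8 detected members, Cd68 being the exception, and for 50.8% of all tested array genes. The 4 low members were not lost, since each was detected with RANKL and read between 1750 and 4965 there, far above background. Lyz2 and Cd180 were lower by less than those 4, and Adgre4 was detected in neither group.

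**Figure D1:**
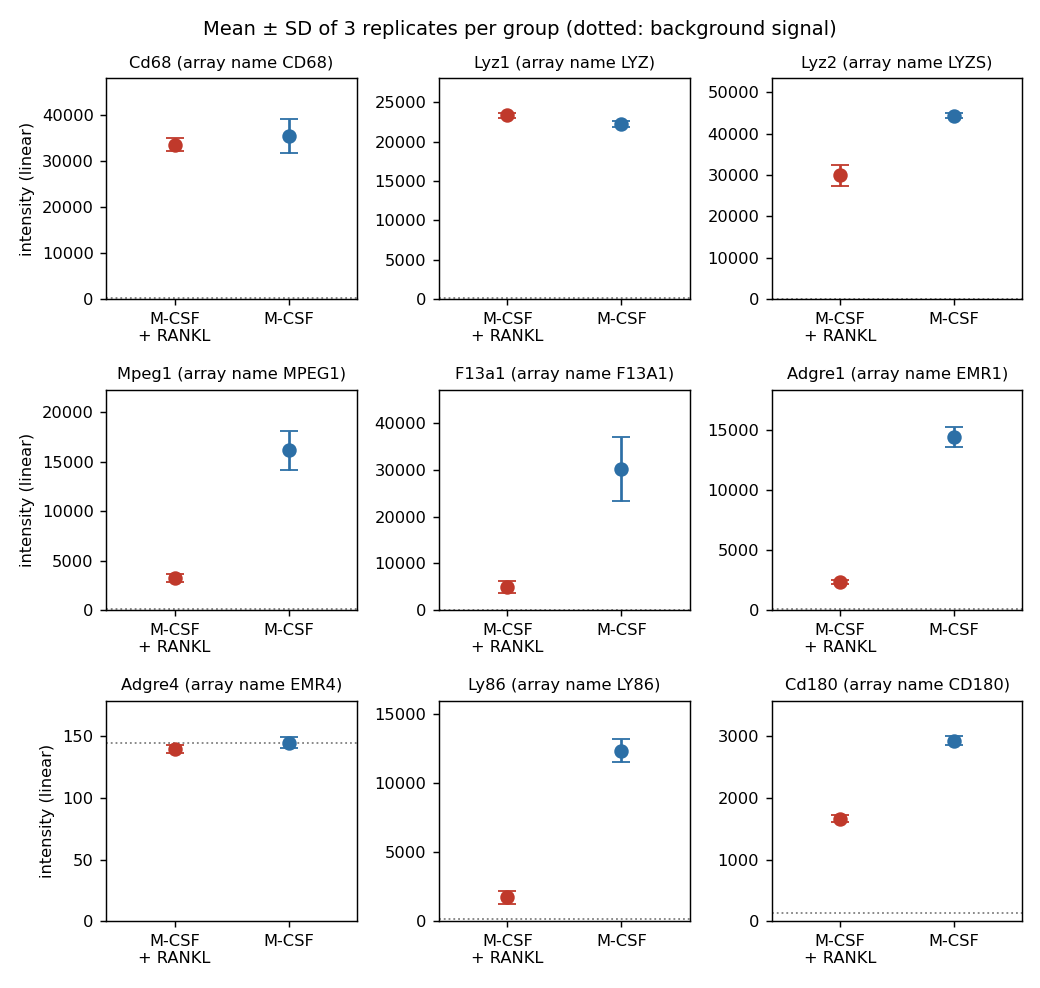
Normalized intensity of each member (linear axis from 0, a scale of its own per panel) in M-CSF + RANKL cultures (red, left) and M-CSF cultures (blue, right). Points are means and bars the SD of 3 replicates; Cd68 and Lyz1 sit at nearly the same height in both groups, Mpeg1, F13a1, Adgre1 and Ly86 are 4.94-fold to 7.05-fold lower with RANKL, and Adgre4 lies on the dotted background line.

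Cd68 encodes macrosialin, a heavily glycosylated membrane protein of late endosomes and lysosomes that is widely used as a stain for macrophages. Its signal was 33656 ± 1488 in M-CSF + RANKL cultures and 35480 ± 3713 in M-CSF cultures (SD, n = 3 each), a log2 ratio of -0.08 ± 0.08 (SE). The difference was smaller than the SD in M-CSF cultures, and the arrays of the groups may have overlapped. Here and below, the SE of a log2 ratio is moderated in limma, drawn toward the usual spread of tested array genes of like intensity. Cd68 is a relative of the lysosomal membrane proteins Lamp1 and Lamp2, and these did not hold their level. Lamp1 fell to 8428 ± 896 in M-CSF + RANKL cultures, against 29395 ± 1454 in M-CSF cultures (3.49-fold lower, adjusted p = 6.97e-09, limma). Lamp2 fell 3.28-fold, with 2803 ± 170 in M-CSF + RANKL cultures and 9202 ± 980 in M-CSF cultures (adjusted p = 3.32e-08, limma). The remaining pair of the family's 4 listed genes, Lamp3 and Lamp5, was not detected in either group.

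The region before the start of Cd68 is shown because it held more of the searched motifs than that of any other member. Motifs of 5 factors that act in myeloid cells and osteoclasts were searched on both strands of the 250 bases before each start in the RefSeq promoter table (GRCm38.p6). They were GAGGAA (PU.1), TGANTCA (AP-1), TTGCNNAA (C/EBP), TGGAAA (NFAT) and CACGTG (E-box), and no matches overlapped in the members. Of 32851 such windows in the table, 23.3% held GAGGAA, 6.75% TGANTCA, 9.56% TTGCNNAA, 18.6% TGGAAA and 6.02% CACGTG. The Cd68 window, chr11:69666171-69666420 (- strand), held 1 match of GAGGAA, 2 of TGANTCA and 1 of TTGCNNAA, which are in capitals.
Cd68: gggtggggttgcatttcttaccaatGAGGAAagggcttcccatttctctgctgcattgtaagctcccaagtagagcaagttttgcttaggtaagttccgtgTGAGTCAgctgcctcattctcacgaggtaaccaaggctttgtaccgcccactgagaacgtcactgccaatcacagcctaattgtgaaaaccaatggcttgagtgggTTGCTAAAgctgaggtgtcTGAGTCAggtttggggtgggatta
A match of letters is not a bound site, and nothing about these factors was measured here. TGANTCA was found before no other member. Adgre1 has no entry in the table, and the other members had at most 1 match per window.

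Lysozyme digests the cell wall of bacteria, and the mouse has 2 genes for it, Lyz2, the form of macrophages and other myeloid cells, and Lyz1, best known from Paneth cells of the gut. Lyz1 read 23345 ± 289 in M-CSF + RANKL cultures and 22272 ± 386 in M-CSF cultures (SD, n = 3 each), 4.81% higher with RANKL (log2 ratio 0.07 ± 0.06, SE). The SDs were small, 1.24% of the mean with RANKL and 1.73% with M-CSF, so that the single arrays of the groups could not have overlapped although the difference in means was slight. The moderated SE is larger than these SDs alone would give. Lyz2 read 29959 ± 2505 in M-CSF + RANKL cultures and 44351 ± 626 in M-CSF cultures, 1.48-fold lower with RANKL (log2 ratio -0.57 ± 0.07, SE). Every array with RANKL was therefore below every array without it. The log2 ratio of Lyz1 exceeded that of Lyz2 by 0.63 ± 0.09 (SE), given as a description. Their probes' sequences are not in the table, and how far each probe also reads the other gene's RNA was not tested.

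The lysozyme genes lie side by side on chromosome 10 with no protein-coding gene between them, and the regions before their starts are shown because they are so much alike. In an alignment of the 250 bases before each start, 200 of 252 columns (79.4%) were identical, and the capitals mark the bases with no identical partner in the other gene. The windows are chr10:117292869-117293118 (- strand) for Lyz1 and chr10:117282273-117282522 (- strand) for Lyz2, from RefSeq (GRCm38.p6).
Lyz1: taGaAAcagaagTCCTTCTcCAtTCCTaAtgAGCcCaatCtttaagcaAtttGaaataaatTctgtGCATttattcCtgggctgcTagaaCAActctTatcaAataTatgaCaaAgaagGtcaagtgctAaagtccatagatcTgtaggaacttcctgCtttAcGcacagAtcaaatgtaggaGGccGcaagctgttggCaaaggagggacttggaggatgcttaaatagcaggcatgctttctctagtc
Lyz2: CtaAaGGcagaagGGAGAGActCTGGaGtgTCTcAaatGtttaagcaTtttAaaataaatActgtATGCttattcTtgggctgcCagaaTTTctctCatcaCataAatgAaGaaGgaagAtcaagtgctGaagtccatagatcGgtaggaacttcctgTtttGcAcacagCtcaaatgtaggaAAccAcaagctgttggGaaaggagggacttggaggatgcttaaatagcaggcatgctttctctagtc
The last stretch before the start is the same in both, and most differences lie in the distal part. Of the 5 motifs, TTGCNNAA occurred in Lyz1, and none occurred in Lyz2. Among the other genes of the lysozyme and lactalbumin family, 1 of 5 was tested, Lyzl4, a testis lysozyme, which fell to 284 ± 9.36 in M-CSF + RANKL cultures, against 880 ± 111 in M-CSF cultures (3.10-fold lower, adjusted p = 1.23e-07, limma). Lysozyme is also made by granulocytes. Of 12 granulocyte markers on the array 9 were detected in each group, and S100a8 and S100a9 were lower with RANKL while 7 did not pass. The signal summed over all 12, background included, was 16353 with RANKL and 21740 with M-CSF. Mpo, an enzyme of granulocyte precursors, read 3400 ± 1525 in M-CSF + RANKL cultures and 4720 ± 2588 in M-CSF cultures. The cells had been sorted as CD11b lo/- and CD115+, and the part of any granulocytes in the lysozyme signals was not tested.

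Mpeg1 encodes perforin-2, a pore-forming protein of macrophages that acts on engulfed bacteria. It read 3273 ± 414 in M-CSF + RANKL cultures and 16164 ± 1945 in M-CSF cultures (SD, n = 3 each), 4.94-fold lower with RANKL (log2 ratio -2.30 ± 0.11, SE). The groups were far apart, the highest value an array with RANKL could have had being 3858 and the lowest with M-CSF 13414. Of the related pore proteins, the complement components and perforin among them, 2 of 11 were tested. Perforin itself (Prf1), the pore protein of killer lymphocytes, rose 1.57-fold, with 1333 ± 133 in M-CSF + RANKL cultures and 847 ± 56.0 in M-CSF cultures (adjusted p = 0.000255, limma). Its detection p was not under 0.01 with M-CSF although the signal was well above background. The complement component C8b read 215 ± 17.0 in M-CSF + RANKL cultures and 224 ± 18.5 in M-CSF cultures and did not pass (adjusted p = 0.646, limma).

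F13a1 encodes the A subunit of coagulation factor XIII, a transglutaminase that cross-links fibrin and is made by macrophages and megakaryocytes. It read 4965 ± 1356 in M-CSF + RANKL cultures and 30209 ± 6870 in M-CSF cultures (SD, n = 3 each), 6.08-fold lower with RANKL (log2 ratio -2.61 ± 0.19, SE). No array with RANKL could have exceeded 6883, and none with M-CSF could have been under 20493. The moderated SE of F13a1 is smaller than its own wide SDs alone would give. Of the other transglutaminases and the B subunit, 1 of the 8 on the array was tested. This was Tgm2, the tissue transglutaminase, which fell 2.57-fold to 2113 ± 76.3 in M-CSF + RANKL cultures, against 5424 ± 612 in M-CSF cultures (adjusted p = 3.12e-07, limma). Its detection p with RANKL was not under 0.01 although the signal was above the floor of 196. Of 10 megakaryocyte and platelet markers 0 were detected with RANKL and 2 with M-CSF. These were Treml1, at 181 ± 22.2 with RANKL and 444 ± 60.8 with M-CSF, and Ppbp, at 145 ± 20.8 with RANKL and 233 ± 40.5 with M-CSF. The signal summed over all 10, detected or not, was 1582 with RANKL and 1893 with M-CSF. Each gene's signal holds the background of about 144, so these sums are mostly background. The remaining markers of the list, Itga2b, Gp9 and Gp1bb among them, were not detected in either group. The part of any such cells in the F13a1 signal was not tested.

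Adgre1 encodes F4/80, the adhesion G protein-coupled receptor by which mouse macrophages are classically stained. It read 2365 ± 199 in M-CSF + RANKL cultures and 14451 ± 809 in M-CSF cultures (SD, n = 3 each), 6.11-fold lower with RANKL (log2 ratio -2.61 ± 0.09, SE). The groups could not have overlapped, with at most 2646 in an array with RANKL and at least 13306 in an array with M-CSF. Its relative Adgre4 read 140 ± 3.12 in M-CSF + RANKL cultures and 145 ± 4.66 in M-CSF cultures. Both values lie at background, with detection p-values of 0.634 with RANKL and 0.433 with M-CSF, so Adgre4 was not detectable in either group and no fold is given. The third member of the subfamily on the array, Adgre5 (CD97), a leukocyte receptor for CD55, rose 3.37-fold to 4157 ± 232 in M-CSF + RANKL cultures, against 1233 ± 63.9 in M-CSF cultures (adjusted p = 1.84e-08, limma). Among 25 listed adhesion receptors, Adgre5 included and the members left out, 6 were tested. Of these 3 rose (Adgra3, Adgre5 and Celsr1), 1 fell and 2 missed the threshold, and their median log2 ratio was 0.33. By comparison, 28.9% of all tested array genes passed higher and 29.0% lower. The largest rise was that of Adgra3 (GPR125), with 3602 ± 395 in M-CSF + RANKL cultures and 489 ± 17.6 in M-CSF cultures (log2 ratio 2.88 ± 0.11, SE). Celsr1 rose at least 1.12-fold and Celsr3 fell 1.24-fold (adjusted p = 0.00732, limma), and with both SDs doubled Celsr3 did not pass (adjusted p = 0.204). With the bound of Celsr1 in place of its ratio the median was 0.05, and with all 25 receptors included, tested or not, it was -0.00.

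Ly86 (MD-1) and Cd180 (RP105) form a complex on the surface of macrophages, dendritic cells and B cells that resembles the lipopolysaccharide receptor, in which MD-2 (Ly96) is bound to Tlr4. Ly86 read 1750 ± 464 in M-CSF + RANKL cultures and 12348 ± 838 in M-CSF cultures (SD, n = 3 each), 7.05-fold lower with RANKL (log2 ratio -2.82 ± 0.16, SE). It had the lowest ratio of the members, and arrays with RANKL could not have exceeded 2407, against at least 11162 with M-CSF. For Ly86 too the moderated SE is smaller than its own SDs alone would give. Cd180 read 1666 ± 57.6 in M-CSF + RANKL cultures and 2927 ± 72.1 in M-CSF cultures, 1.76-fold lower with RANKL (log2 ratio -0.81 ± 0.09, SE). A second array gene listed under LY78, an older name of Cd180 that the choice of members did not use, was read by another probe. It read 386 ± 2.64 in M-CSF + RANKL cultures and 699 ± 99.6 in M-CSF cultures, a log2 ratio of -0.86 ± 0.11 (SE). After background subtraction the log2 ratio was -1.20 for LY78, past 2-fold, and -0.87 for CD180, within it. The log2 ratio of Ly86 differed from that of Cd180 by -2.01 ± 0.18 (SE), again a description whose SE treats the genes as independent.

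In the related receptor complex the values of the co-receptor and the receptor were the following, with no test of the difference between the complexes. Ly96 read 2900 ± 126 in M-CSF + RANKL cultures and 3306 ± 237 in M-CSF cultures and did not pass (log2 ratio -0.19 ± 0.09, SE, adjusted p = 0.103, limma), whereas the receptor Tlr4 fell to 479 with RANKL, against 1239 with M-CSF (adjusted p = 2.3e-07, limma), its detection p with RANKL not being under 0.01. The other proteins that share the lipid-binding ML domain of Ly86 rose. Npc2, which carries cholesterol out of lysosomes, read 17824 ± 1732 in M-CSF + RANKL cultures and 8912 ± 208 in M-CSF cultures (log2 ratio 1.00 ± 0.08, SE, adjusted p = 8e-07, limma). Gm2a, the activator of ganglioside breakdown, read 13929 ± 617 in M-CSF + RANKL cultures and 10442 ± 1160 in M-CSF cultures (log2 ratio 0.42 ± 0.09, SE, adjusted p = 0.00182, limma), a call lost with both SDs doubled (adjusted p = 0.112). Of 15 Toll-like receptors and co-receptors 11 were tested, and 10 of them fell, Ly96 being the exception, where 29.0% of all tested array genes passed lower. All 11 were detected with M-CSF and 9 with RANKL. With no filter, background subtracted, SDs doubled, no moderation or no trend, 9 fell. The weakest call was Lbp, at 200 ± 19.5 with RANKL and 251 ± 46.2 with M-CSF (adjusted p = 0.0439, limma). The median log2 ratio of the 11 was -1.90, the same with bounds in place of ratios. The largest falls were those of the nucleic acid sensors Tlr13 (11.6-fold), Tlr7 (389 ± 53.6 with RANKL and 4267 ± 600 with M-CSF) and Tlr8 (at least 4.82-fold), and of Tlr2 (5.32-fold), the receptor of bacterial lipoproteins. Cd180 and Ly86 are also B cell genes. The cells had been sorted as CD45R-, and the part of any B cells in these signals was not tested. Of 12 B cell markers 2 were detected, in both groups. The signal summed over all 12, much of it background, was 2209 with RANKL and 3106 with M-CSF. The detected genes were Blnk, which fell to 515 ± 38.8 with RANKL, against 1325 ± 230 with M-CSF, and Cd79b. Cd79b was lower as well, at 205 ± 21.3 with RANKL and 286 ± 7.64 with M-CSF. The remaining markers of the list, Cd79a, Ms4a1 and Pax5 among them, were not detected in either group. Of 11 dendritic cell markers on the array 4 were tested, of which 2 were lower with RANKL and 2 did not pass. The brightest with RANKL, H2-Aa, read 2601 ± 817 with RANKL and 3165 ± 536 with M-CSF and did not pass. The part of any dendritic cells in these signals was not tested either.

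**Figure D2:**
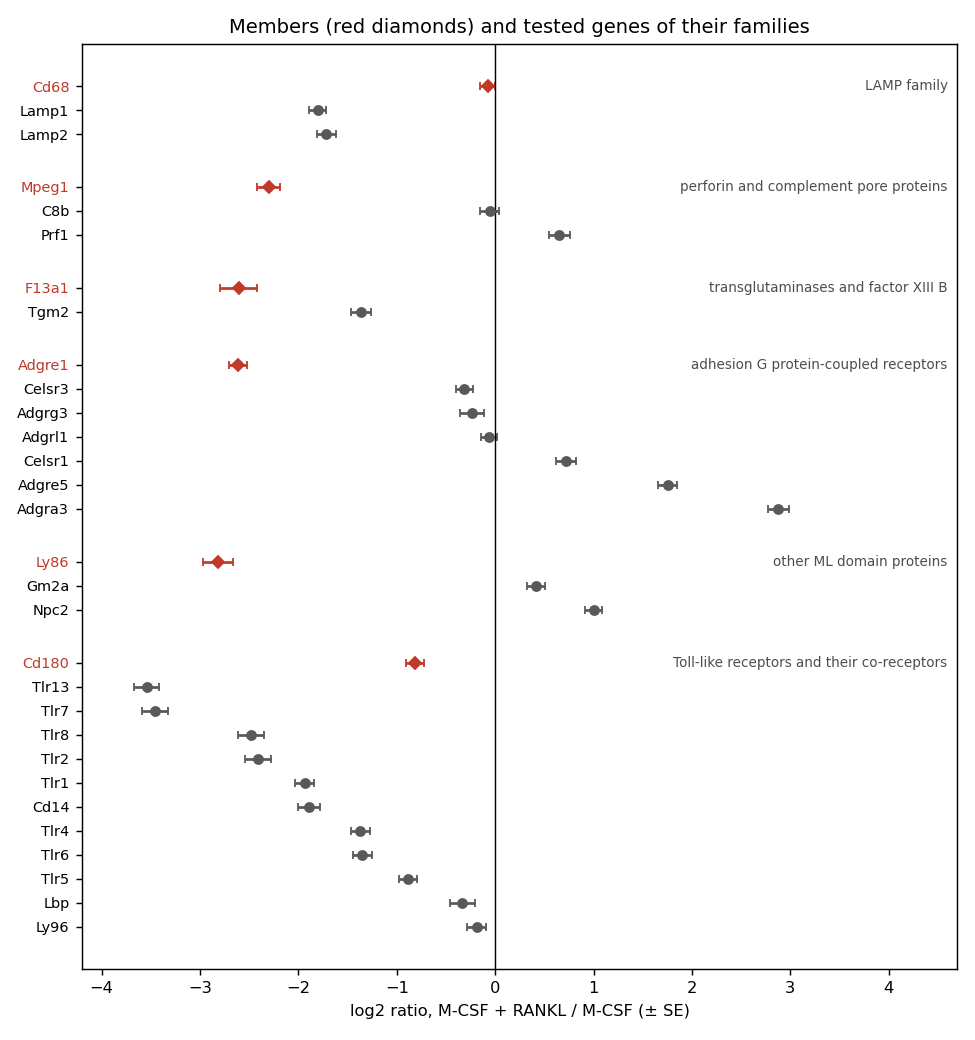
Log2 ratio of M-CSF + RANKL over M-CSF (x axis) with its SE for 6 members (red diamonds) and the tested genes of their families (grey points), as measured and without floors. Cd68 lies at -0.08 while Lamp1 and Lamp2 are at -1.80 and -1.72, and Adgre1 and Ly86 lie at -2.61 and -2.82 while Adgre5 and Npc2 are at 1.75 and 1.00.

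The members were set beside 47 other tested myeloid genes. Of these, which were listed with earlier results of the data known, 39 fell, 1 rose and 7 missed the threshold. All 47 were detected with M-CSF and 40 with RANKL, so some were tested only through the group where they were high. Their median log2 ratio was -1.26, the same with bounds in place of ratios, and 28 were at least 2-fold lower. Among all tested array genes 29.0% passed lower and 7.01% were at least 2-fold lower. The monocyte and macrophage markers of the label check are all on this list, so these counts are not separate from that check. The steepest falls were those of the complement C1q chains, with C1qc 56.5-fold lower (616 ± 22.0 with RANKL and 34802 ± 1505 with M-CSF), C1qb 32.8-fold and C1qa at least 24.7-fold, and of the fractalkine receptor Cx3cr1 (24.7-fold). No member reached those ratios. Ly86 lay below Aif1, a calcium-binding protein of macrophages (log2 ratio -2.67), Adgre1 and F13a1 just above Trem2, a lipid receptor (-2.64), and Mpeg1 just above Fcgr4, an Fc receptor (-2.34). Lyz2 lay close to Csf1r, the M-CSF receptor (log2 ratio -0.53). Cd68 and Lyz1 had ratios near those of some genes that did not pass, such as galectin-3 (Lgals3), with 64848 ± 1215 in M-CSF + RANKL cultures and 63456 ± 173 in M-CSF cultures (adjusted p = 0.598, limma), and the integrin chain Itgb2 (log2 ratio 0.12). Gpnmb, a glycoprotein of macrophages and osteoclasts, read 6753 ± 2115 in M-CSF + RANKL cultures and 9238 ± 1343 in M-CSF cultures and did not pass (adjusted p = 0.054, limma). The gene that rose was Spi1, which encodes the myeloid transcription factor PU.1, at 2846 with RANKL and 1789 with M-CSF (log2 ratio 0.67). Aif1, Trem2, Fcgr4, Csf1r, Itgb2 and Spi1 were named after their values were seen, as were Tlr4, Lbp, S100a9 and Pecam1. Itga2b, Gp9, Gp1bb, Cd79a, Ms4a1, Pax5, Lamp3 and Lamp5 were named as undetected members of their lists, also after their values were seen.

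**Figure D3:**
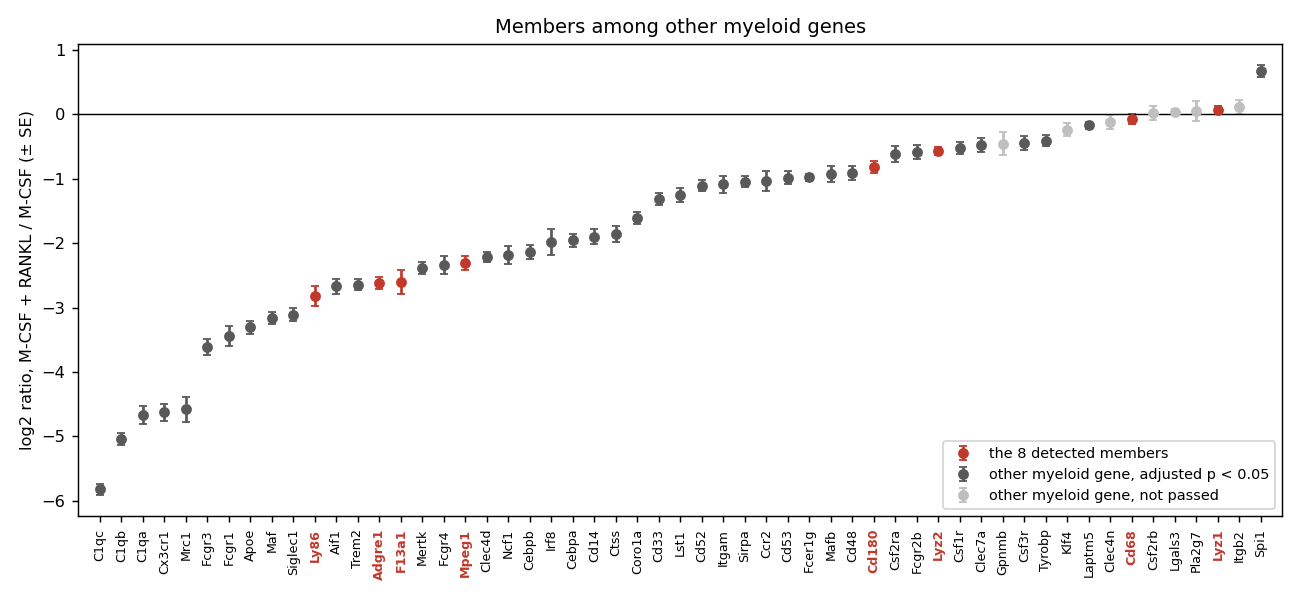
Log2 ratio of M-CSF + RANKL over M-CSF (y axis) with its SE for the 8 detected members (red) and 47 other tested myeloid genes (dark grey where the adjusted p was under 0.05, light grey where not), ordered by ratio. Ly86, Adgre1, F13a1 and Mpeg1 sit together in the lower part, Cd180 and Lyz2 among the less changed genes, and Cd68 and Lyz1 next to 0.

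The spread between replicates, which the choice of members did not use, differed widely among them. F13a1 had an SD of 27.3% of its mean in M-CSF + RANKL cultures and 22.7% in M-CSF cultures, and only 0.39% and 3.06% of tested array genes had a larger one in those groups. The medians over tested array genes were 7.17% with RANKL and 7.90% with M-CSF. Ly86 was as variable as F13a1 with RANKL (26.5%) but near the median with M-CSF (6.79%). Lyz2 had 8.36% with RANKL and 1.41% with M-CSF, and for Cd68 the larger spread was in M-CSF cultures, 4.42% with RANKL and 10.5% with M-CSF. Cd180 was steady in both, at 3.46% with RANKL and 2.46% with M-CSF. Whether 1 replicate accounts for the spread of F13a1 or Ly86 was not tested, since single arrays are not given. No member's mean exceeded 62.4% of the highest mean of its group, that of Lyz2 with M-CSF.

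**Figure D4:**
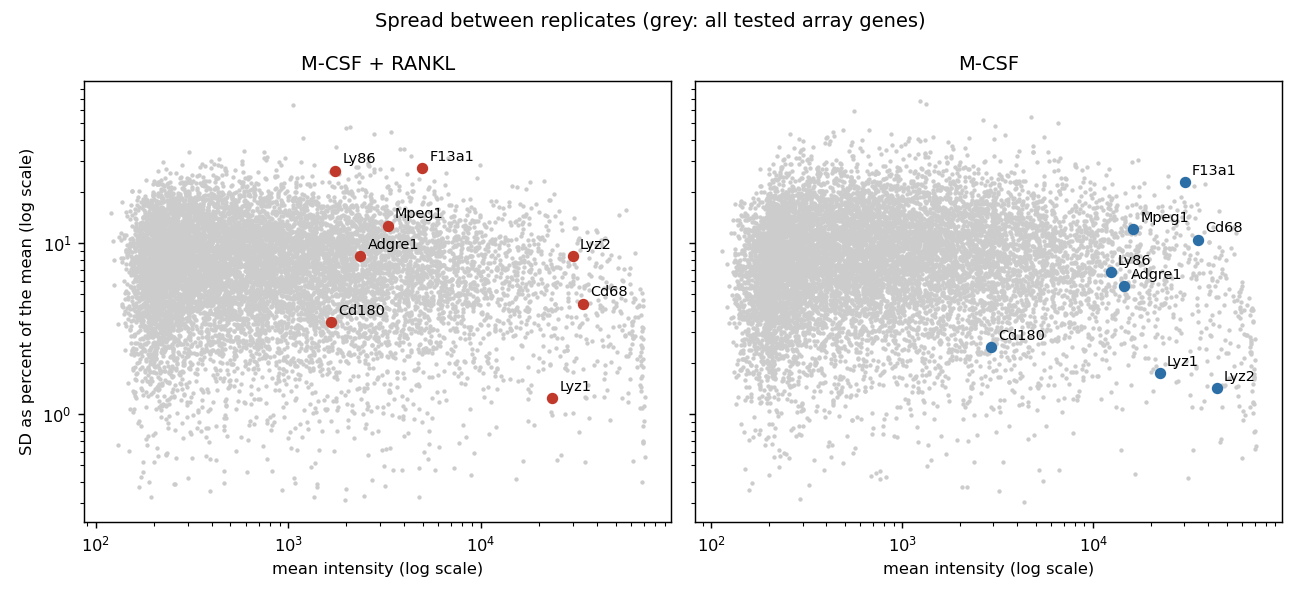
SD as a percent of the mean (y axis, log scale) against mean intensity (x axis, log scale) in M-CSF + RANKL cultures (left) and M-CSF cultures (right), with all tested array genes in grey (those under 0.3% are not drawn) and the 8 detected members in colour. F13a1 lies along the upper edge in both panels, at 27.3% and 22.7%, and Lyz1 near the lower edge, at 1.24% and 1.73%.

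F13a1 and Ly86, both more than 6-fold lower with RANKL, proved to be neighbours on mouse chromosome 13, with no protein-coding gene between them in the RefSeq gene order. They lie on opposite strands, and their starts face each other from far apart. The window before F13a1 ends at position 37050494 and that before Ly86 begins at 37345095, so the pair shares no start region. The tested genes on either side went the other way. Before F13a1, Fars2, a mitochondrial tRNA synthetase gene, read 6473 with RANKL and 3543 with M-CSF (log2 ratio 0.87 ± 0.09, SE, adjusted p = 5.53e-06, limma), and Nrn1 rose at least 1.01-fold, at 200 with RANKL and 139 with M-CSF. After Ly86, Rreb1, a zinc finger transcription factor gene, rose 1.49-fold, with 4367 with RANKL and 2938 with M-CSF (adjusted p = 0.00251, limma). The next genes outward, Lyrm4 and Ssr1, had no detection p under 0.01 and were not tested. The signal of Ssr1 was nevertheless well above background, at 687 with RANKL and 829 with M-CSF (log2 ratio -0.27). The regions before the starts of the pair are shown so that they can be compared, chr13:37050245-37050494 (- strand) for F13a1 and chr13:37345095-37345344 (+ strand) for Ly86 (RefSeq, GRCm38.p6), with motif matches in capitals.
F13a1: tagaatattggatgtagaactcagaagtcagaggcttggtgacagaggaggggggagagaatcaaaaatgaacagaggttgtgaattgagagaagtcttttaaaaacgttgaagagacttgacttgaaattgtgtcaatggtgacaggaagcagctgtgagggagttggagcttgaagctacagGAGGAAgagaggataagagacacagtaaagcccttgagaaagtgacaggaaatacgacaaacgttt
Ly86: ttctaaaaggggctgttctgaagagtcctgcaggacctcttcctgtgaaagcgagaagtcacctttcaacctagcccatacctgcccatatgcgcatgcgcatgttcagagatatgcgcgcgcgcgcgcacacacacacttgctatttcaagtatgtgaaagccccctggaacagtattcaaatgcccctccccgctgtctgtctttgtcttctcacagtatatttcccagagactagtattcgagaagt
The F13a1 window held 1 match of GAGGAA, and a second F13a1 start in the table none of the 5 motifs. The Ly86 window held none of them.

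Neighbours were looked up for all 9 members, 3 protein-coding genes on each side. Of 42 neighbours that are not members, those of F13a1 and Ly86 included, 23 were tested, and 7 of them fell, 4 rose (Fars2, Nrn1, Rreb1 and Trip10) and 12 missed the threshold. Across all tested array genes 57.8% passed, 29.0% lower and 28.9% higher, and nothing about the loci is read from these counts. Eif4a1, a translation initiation factor gene next to Cd68 on chromosome 11, had a log2 ratio of -0.11 ± 0.05 (SE, adjusted p = 0.114, limma), and Tnfsf13, the third gene on that side, which encodes the cytokine APRIL, fell 2.95-fold (adjusted p = 1.23e-07, limma). Beside Adgre1, the signalling gene Vav1 fell 1.83-fold (adjusted p = 5.42e-06, limma), and Trip10, the third gene on that side, rose 2.00-fold (adjusted p = 2.35e-06, limma). Adgre1 and Adgre4 share chromosome 17 but stand 62 protein-coding genes apart.

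**Figure D5:**
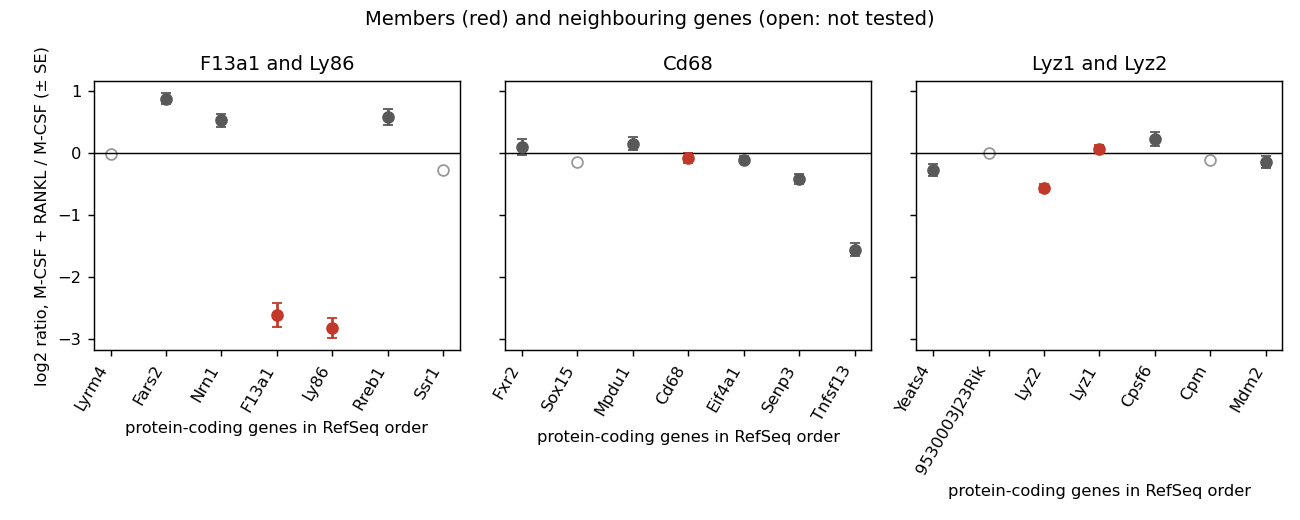
Log2 ratio of M-CSF + RANKL over M-CSF (y axis) with its SE for members (red) and the neighbouring protein-coding genes in RefSeq order (x axis, not to scale; grey tested, open not tested). F13a1 and Ly86 lie at -2.61 and -2.82 with Nrn1 and Fars2 at 0.52 and 0.87 on one side and Rreb1 at 0.57 on the other, and Lyz2 lies 0.63 below Lyz1.

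For each detected member the array genes with the most similar pair of group means were also named, by the distance of their log2 means over the 2 groups. The nearest to Cd68 was its chromosomal neighbour Eif4a1 (distance 0.04), with 33926 in M-CSF + RANKL cultures and 36549 in M-CSF cultures, followed by the ferritin light chain Ftl1 (0.06). Lyz1 was nearest to the ribosomal protein genes Rpl31 and Rpl27a, and Lyz2 to osteopontin (Spp1, 31778 with RANKL and 47034 with M-CSF) and Rap1b. Mpeg1 was nearest to Fads1 and Ms4a6d, F13a1 to Cd81 and Anxa3, and Adgre1 to Sgk1 and Tlr2. Ly86 was nearest to Lhfpl2 and Cd93, and Cd180 to Cadm1 and Mknk1. With 2 groups such likeness rests on 2 values a gene, taken from probes whose brightness also depends on their own sequence.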

How the data were processed

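RNA of sorted mouse bone marrow cells was read on Illumina bead arrays, per the labels. The authors deposited a normalized linear intensity per array gene and group as the mean of 3 biological replicates with its SD, a detection p-value, and a ratio of the means whose header names M-CSF over RANKL but whose values equal RANKL over M-CSF in all 31492 rows (relative tolerance 1e-06). The sources used here do not give the normalization, software, array version or build. The deposited value table holds the same means.

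The log2 ratio of means was tested with limma 3.58.1 in R 4.3.3. Its variance came from the SDs by the delta method, was pooled on 4 degrees of freedom and moderated along an intensity trend, with 7.49 prior degrees of freedom. Each SE given for a log2 ratio comes from that moderated variance. Tests were two-sided with Benjamini-Hochberg adjustment over 11012 array genes with a detection p under 0.01 in a group, and the threshold was 0.05. The procedure was tested on simulated data. A fold is a lower bound where the dimmer group was undetected and below its floor (196 with RANKL, 198 with M-CSF, the lowest signals detected where detection p moves in steps). Array names were matched to symbols through RefSeq (GRCm38.p6), 13430 directly and 8111 through a single synonym. The brightest array gene stood for a symbol.

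Members and lists were chosen with earlier results of these data known. Named besides the members are, per list, the 4 largest called changes and the 2 brightest genes not passing, the 3 brightest detected markers of a list, neighbours by position and the nearest genes by level. Exceptions are stated. Alternatives were other filters, background subtraction (signals floored at 10), rescaling, doubled SDs, no moderation, no trend and averaging of array genes. The precision is limited by 3 arrays a group. No protein sequences were used here.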

Additional observations from a re-analysis of the deposited data

How the results depend on the processing

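The members' log2 ratios kept their direction after background subtraction, after rescaling and in the series' value table, and 4 members were at least 2-fold lower under each of the first pair. Of 199 values of single members and named genes under alternatives, 197 kept their direction and side of the threshold or moved by less than the replicate spread, and 2, those of Celsr3 and Gm2a, lost their call with both SDs doubled. The 199 include the members' values, whose direction was fixed as said. With both SDs doubled 3054 array genes passed (1517 lower, 1537 higher) in place of 6369, and 0 adhesion receptors were lower. The median log2 ratio of the other myeloid genes was -1.04 with no filter and -1.63 after background subtraction. For the Toll-like list it was -1.35 unfiltered and -1.63 under the signal filter. For the adhesion receptors it was -0.00216 unfiltered, a reversed sign, 0.0422 under the signal filter and 0.76 after background subtraction. The filters bring in genes at background, and subtraction widens the ratios of dim genes. Leaving out replicates was not possible, since single arrays are not given. No paired analysis was possible because each group is deposited as 1 mean with no replicate numbers.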
